A study of Felis catus with 6 samples.

Results

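IL17A, CCR6, BATF and IL7R, 4 genes of T helper 17 (Th17) cells, were followed in oral mucosa of cats with feline chronic gingivostomatitis (FCGS), an immune-mediated inflammation of the mouth. They were chosen by name among the 21529 gene identifiers of the deposited files, of which 1929 could be given a name (IL17A is ENSFCAG00000010067, CCR6 ENSFCAG00000018132, BATF ENSFCAG00000014194 and IL7R ENSFCAG00000009200). The names come from a supplementary table of the study that holds genes at least 2-fold different between lesion and healthy mucosa in these same libraries. A difference of that size is therefore a condition for a gene to appear here and is not evidence on its own.

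The samples were 6 RNA libraries from 3 cats, named Bart, Jerome and Sadie in the labels. Each cat gave 1 biopsy of inflamed mucosa (lesion) and 1 of adjacent healthy mucosa. Both groups thus came from diseased animals, and per the paper all study cats with FCGS were edentulous, free of FIV and FeLV, on buprenorphine and without immunosuppressive drugs. Neither ages nor sexes are given for these 3 cats in the sources at hand, and none of the 6 libraries is from a cat without FCGS. The labels call the tissue gingival, whereas by the paper the biopsies lay beside the palatoglossal folds.

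Th17 cells are CD4+ T cells that secrete interleukin 17A and recruit neutrophils to barrier surfaces such as gut, skin and gum. Interleukins 6, 1 beta and 23 with transforming growth factor beta drive their formation, and transcription factors such as RORA, STAT3, IRF4 and BATF take part in fixing the lineage. Interleukin 17A acts on epithelial and stromal cells through the receptor pair IL17RA and IL17RC and induces chemokines, colony-stimulating factors and metalloproteinases there. None of the 4 genes is made by Th17 cells alone. CCR6, the receptor of the chemokine CCL20, is also carried by B cells and dendritic cells, BATF is an AP-1 factor of many activated lymphocytes, and IL7R is the interleukin 7 receptor chain of most resting T cells.

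Levels are FPKM, fragment counts scaled by transcript length and library size, which allows a comparison between genes. Differences are on a log2 scale after values below 1 FPKM were raised to 1, so the change of a weakly expressed gene is understated. They were tested with limma over 13327 identifiers, and p-values were adjusted by Benjamini-Hochberg over all of them. FPKM totals ran from 1382120 to 1903770 per library. Read numbers are not in the files, but steps among values under 0.1 FPKM put the FPKM worth of a read within 1.76-fold across libraries. Skeletal muscle transcripts stood high in 3 libraries, the lesions of Jerome and Sadie and the healthy mucosa of Sadie (summed FPKM of 16 muscle genes 2595 to 6001, against 9.98 to 26.8 in the others). Their part in the results was not tested beyond the fits without single libraries given below. COL17A1, a hemidesmosome collagen of basal epithelium, was present in every library (42.7 to 504 FPKM), as were the 13 named T cell markers. The other named epithelial markers were uneven: KRT4, a keratin of oral epithelium, was listed at 0 in the healthy mucosa of Jerome and Sadie and at 2089 FPKM in that of Bart, and LAMB4 and TGM5 were under 1 FPKM in 2 and 3 lesions. In bulk tissue, fewer cells of a type and less RNA per cell cannot be told apart.

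In lesions BATF was the only one of the 4 genes to pass the test, and it stood about 3-fold above healthy mucosa. BATF pairs with JUN proteins and IRF4 on DNA and is required for Th17 differentiation. Bart had 29.0 FPKM in the lesion against 7.82 FPKM in healthy tissue. In Jerome the values were 36.5 and 14.1 FPKM, and in Sadie 32.9 and 11.2 FPKM. The lesions lay close together, within 1.26-fold of each other, and the lowest of them was 2.05-fold above the highest healthy library. Lesions averaged 32.8 ± 3.75 FPKM and the healthy libraries 11.1 ± 3.16 FPKM (SD, n = 3 each). The log2 difference was 1.60 (standard error 0.27, 95% confidence interval 0.94 to 2.27, adjusted p = 0.026 from limma), positive in 3 of 3 cats. Without both libraries of Jerome limma gave an adjusted p of 0.152 for BATF, without those of Sadie 0.257, and without a single library of these cats 0.0550 to 0.0978. Limma called 0 of 13327 identifiers without either cat (2436 and 2139 at an unadjusted p under 0.05), so these fits had few calls of any kind.

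IL17A, the cytokine that gives the cells their name, was clearly present in the lesions of only 2 cats. In the lesions it measured 10.6 FPKM (Bart), 5.38 FPKM (Jerome) and 0.628 FPKM (Sadie). In healthy mucosa it measured 1.36, 1.13 and 0.468 FPKM in the same order of cats. The lesion was 7.76 times the healthy value in Bart and 4.74 times in Jerome, whereas both libraries of Sadie lay under the floor of 1 FPKM, so their difference counts as 0. The groups overlapped, since the lesion of Sadie stood below the healthy mucosa of Bart and Jerome. The means were 5.53 ± 4.98 FPKM and 0.989 ± 0.465 FPKM (SD, n = 3 each). The log2 difference of 1.73 (standard error 0.85, 95% interval -0.33 to 3.80) did not pass the test (adjusted p = 0.223 from limma), and it was 2.71 without the lesion of Sadie (adjusted p = 0.0845) and 1.00 without that of Bart (0.407).

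CCR6 was the weakest of the 4 genes in lesions by its mean and had another order of cats. It measured 2.88 FPKM in the lesion of Bart, 2.02 FPKM in that of Jerome and 6.54 FPKM in that of Sadie. In healthy mucosa it measured 0.383, 1.51 and 1.75 FPKM, of which the first is under the floor. Sadie, the cat with the least IL17A, thus had the most CCR6 in both tissues. The lowest lesion was 1.15 times the highest healthy library. The log2 difference was 1.28 (standard error 0.50, 95% interval 0.07 to 2.49). It did not pass the test (adjusted p = 0.141 from limma), although it was positive in 3 of 3 cats, as in 28.6% of all tested identifiers. Without the lesion of Sadie it was 0.80.

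IL7R differed in 2 cats and was level in the other. The lesions measured 11.7 FPKM (Bart), 4.31 FPKM (Jerome) and 6.72 FPKM (Sadie), and the healthy libraries 2.38, 4.30 and 1.69 FPKM. Jerome had a ratio of 1.003, against 4.91 in Bart and 3.97 in Sadie. Jerome thus held both the lowest lesion and the highest healthy value, and the groups are separated by that margin alone. The log2 difference was 1.43 (standard error 0.51, 95% interval 0.19 to 2.67) and did not pass the test (adjusted p = 0.117 from limma). Without both libraries of Jerome it was 2.14 (adjusted p = 0.164).

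**Figure D1:**
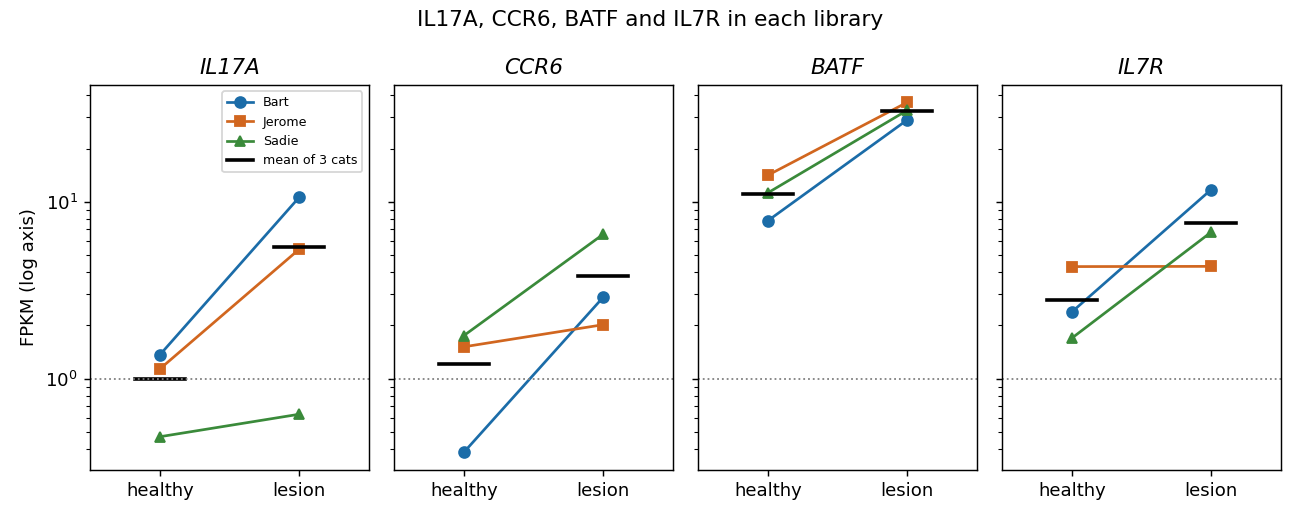
FPKM (vertical log axis) of IL17A, CCR6, BATF and IL7R in healthy mucosa and lesion, with 1 coloured line per cat, black bars for the mean of 3 cats and a dotted line at the floor of 1 FPKM. BATF runs in parallel in the 3 cats, IL17A of Sadie stays under the floor in both tissues, and IL7R of Jerome is flat at 4.30 and 4.31 FPKM.

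Of all tested identifiers, 5.31% were higher in lesions at an adjusted p under 0.05, and of the named ones with a positive difference 31.5% were. Of the 4 genes 1 passed, a share near that of the named genes. At an unadjusted p under 0.05 there were 3, a level that 4213 of the 13327 tested identifiers reached. Lesions lay above healthy mucosa without overlap for 3 of the 4 genes, against 16.7% of all tested identifiers, but the naming table favours such genes. With the cat as a block the same gene passed, and 12.2% of identifiers were called higher. Adjusted p was then 0.022 for BATF, 0.076 for CCR6, 0.128 for IL7R and 0.130 for IL17A from limma. The order of mean levels in lesions was BATF, IL7R, IL17A and CCR6. The 3 values of BATF lay above all those of the others, whereas IL7R, IL17A and CCR6 overlapped in range.

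Each of the 4 genes was set against other named genes over the 6 libraries by the correlation of log2 values. This is a description, since libraries of a cat share an animal and 1929 genes were searched. All of those carry a name because they differ between the tissues, which favours high correlations. Values under the floor count as equal, which holds for 2 of 6 values of IL17A and of MMP9 and 3 of IL33. IL17A was most like VNN3 (r = 0.990), IL33 (0.985) and MMP9 (0.984). CCR6 was most like MMRN1 (r = 0.966), CAPN6 (0.966) and MPPED2 (0.953). BATF was most like MERTK (r = 0.999), INPP5D (0.998) and TMED3 (0.998), and IL7R most like LETM2 (r = 0.986), SVEP1 (0.973) and TIMP1 (0.949). Among the 4 genes themselves r ran from 0.087 (IL17A and CCR6) to 0.766 (BATF and CCR6).

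Transcription factors listed for Th17 cells moved in both directions, and in bulk mucosa their values cannot be assigned to Th17 cells. Of 14 transcription factors listed, 6 were named: 2 of them rose while 1 fell (3 and 2 with the cat as a block). The 6 had a median log2 difference of 0.20, against -0.07 over all tested identifiers and 1.26 over the 1929 named ones. Since list members counted here all carry a name, 1.26 is the value to set beside each list median given below. BATF and NFATC1, a factor of calcium signaling in T cells (log2 difference 1.46, adjusted p = 0.025 from limma), were the ones that rose. RORA fell: it measured 2.70, 1.40 and 0.866 FPKM in the lesions of Bart, Jerome and Sadie, against 7.54, 6.63 and 6.63 FPKM in healthy mucosa. It was lower in the lesion of every cat, as were 34.6% of all tested identifiers. All 3 lesions were below all 3 healthy libraries, and on the log2 scale lesion minus healthy was -2.15 ± 0.40 (standard error; limma, adjusted p = 0.030). Of all tested identifiers 5.31% were called higher and 6.61% lower (12.2% and 11.1% with the block). Among the named ones with a positive difference 31.5% were called without the block.

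RORA is also made by epithelial cells, and of 4 named epithelial markers 3 fell, among them COL17A1 (log2 difference -2.25, adjusted p = 0.038 from limma), whereas KRT4 was lower in the lesion of Bart and higher in those of Jerome and Sadie (569 and 2534 FPKM in the lesions of Sadie and Jerome; adjusted p = 0.468). Their part in the RORA values was not tested. AHR, the aryl hydrocarbon receptor that promotes interleukin 22, had a log2 difference of 1.62, and HIF1A, a hypoxia factor that promotes Th17 differentiation, one of -1.10. Each kept its sign in all 3 cats, and both passed only with the cat as a block (adjusted p = 0.024 and 0.028 from limma, against 0.274 and 0.176).

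Among the IL-17 family and its receptors, 3 of 18 genes had a name and none passed limma. Unadjusted p was under 0.05 for 1, as for 4213 of the 13327 tested identifiers. With the block 1 was called lower, as were 11.1% of all tested identifiers by that fit. IL17RC, the receptor chain needed for signaling by interleukin 17A, went the other way from the cytokine. It measured 16.2, 24.9 and 16.4 FPKM in the lesions of Bart, Jerome and Sadie, against 29.1, 42.3 and 47.0 FPKM in healthy mucosa, with no overlap, as in 21.9% of all tested identifiers for that direction (log2 difference -1.04, adjusted p = 0.064 from limma, 0.041 with the block). IL17RD, a related receptor that modulates the signal, was near or below the floor in healthy mucosa (0.222 to 1.06 FPKM) and reached 0.966, 4.31 and 5.03 FPKM in the lesions of Bart, Jerome and Sadie. In Bart both values were under the floor, which sets the difference to 0, while the unfloored ratio was 3.35. The log2 difference was 1.45 (adjusted p = 0.180 from limma) and 2.46 with 0.1 FPKM added in place of the floor (adjusted p = 0.105). IL17F, IL22, IL23R, IL23A, CCL20, KLRB1, STAT3 and IRF4 carried no name and were not analysed here.

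The named relatives and partners of BATF behaved unevenly, and JUN, JUNB, JUND and IRF4 carried no name. Of 12 genes of the BATF family and its partners, 5 had a name and 3 rose: BATF, BATF2 and IRF8. Over all tested identifiers 5.31% were called higher, and 31.5% among the named ones with a positive difference. BATF2, an interferon-induced relative, measured 38.5, 76.9 and 88.3 FPKM in the lesions of Bart, Jerome and Sadie, against 12.1, 23.7 and 7.59 FPKM in healthy mucosa (log2 difference 2.30, adjusted p = 0.041 from limma). IRF8, a factor of myeloid and B cells that can pair with BATF proteins, had a log2 difference of 1.76 (adjusted p = 0.029). BATF3, needed for cross-presenting dendritic cells, had one of 1.21 (adjusted p = 0.193) with overlapping groups. FOSL1, an AP-1 member of epithelial cells, was lower in every lesion than in the healthy mucosa of its cat (log2 difference -1.55, adjusted p = 0.272).

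Cytokines and receptors listed around Th17 formation had higher means in lesions, with large differences between cats. The list is not confined to inducers, since it also holds interleukin 2 receptor chains and IL27. Of its 24 genes 12 had a name, and all 12 had a positive log2 difference (median 1.97). Of the 1929 named identifiers tested, 1292 had a positive one. None of the 12 passed limma with tissue as the only term, and 10 passed with the cat as a block. By the former fit 9 had an unadjusted p under 0.05, as did 4213 of all 13327 tested identifiers. The block called 12.2% of all tested identifiers higher, and its share among the named ones was not computed. IL6, the cytokine that starts the program, measured 1224, 328 and 25.0 FPKM in the lesions of Bart, Jerome and Sadie. In healthy mucosa it measured 118, 28.5 and 0.828 FPKM, so the healthy mucosa of Bart exceeded the lesion of Sadie. Within each cat the lesion was 10.4 to 25.0 times the healthy value, that of Sadie raised to the floor (log2 difference 3.85, adjusted p = 0.271 from limma, 0.022 with the block). IL1B followed the same order in lesions, with 218, 48.4 and 5.16 FPKM, against 4.41, 7.67 and 0.845 FPKM in healthy mucosa (log2 difference 3.55, adjusted p = 0.158, 0.041 with the block). The members with the smallest p were IL2RG and IL2RA, chains of the interleukin 2 receptor, IL12RB1, shared by the receptors of interleukins 12 and 23, and IL21R. Their log2 differences were 1.95, 1.99, 2.29 and 2.66 (adjusted p = 0.059 to 0.10 from limma).

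Of 21 surface receptors and ligands of Th17 cells, 11 had a name, and all 11 had a positive difference (median 1.72). Only CXCR4 passed, against 5.31% of all tested identifiers called higher. With the block 4 did, against 12.2% called higher by that fit. CXCR4, a homing receptor of most leukocytes, differed by 2.28 on the log2 scale (limma, adjusted p = 0.025). IL18RAP, CCR4 and CCR7 followed with 2.74, 1.06 and 2.03 (adjusted p = 0.065, 0.076 and 0.101). CCR4, which Th17 and Th2 cells carry beside CCR6 or without it, was level in lesions at 3.34, 2.91 and 2.91 FPKM (Bart, Jerome, Sadie). On the interleukin 7 route, 3 of 15 genes had a name. JAK3, the kinase bound to the common gamma chain IL2RG that IL7R pairs with, rose: healthy libraries averaged 7.46 ± 2.95 FPKM and lesions 35.6 ± 5.23 FPKM (SD, n = 3 each), which is 2.32 on the log2 scale (limma, adjusted p = 0.022). In Jerome, where IL7R was level, JAK3 was 3.75 times and IL2RG 3.50 times the healthy value.

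**Figure D2:**
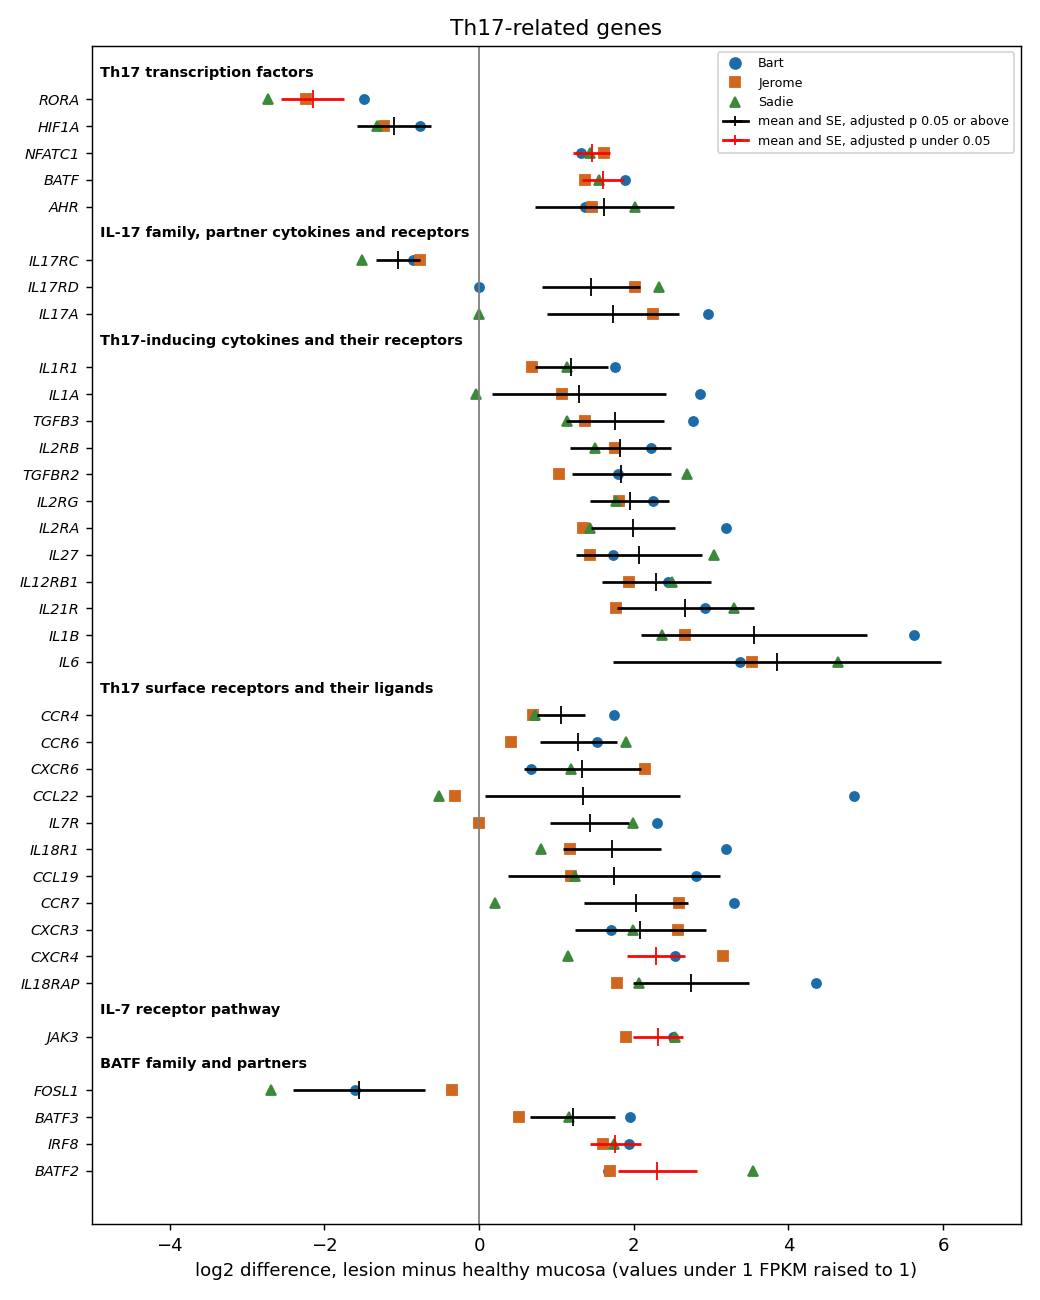
Log2 difference, lesion minus healthy mucosa (horizontal axis), for genes of 6 Th17-related lists reported here (vertical axis), with 1 coloured point per cat and a bar for the mean and its standard error by limma. RORA, with a mean of -2.15, lies left of 0 in all 3 cats, and IL17A has points at 2.96, 2.25 and 0.

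Genes that interleukin 17A induces in epithelium and stroma were in 7 of 8 cases highest in the lesion of Bart, where IL17A was highest. The share of all identifiers highest in that lesion was not computed. Genes outside this list, such as IL1A, IL18RAP and LRRC32, were also highest there, while TBX21 and NCF1 were lowest there. Of 34 listed, 8 had a name, and 7 had a positive difference (median of the 8, 2.56). IL6 is one of the 8 and was also counted among the Th17 cytokines and receptors above. None of the 8 passed limma (2 at an unadjusted p under 0.05), and 6 passed with the cat as a block, which called 12.2% of all tested identifiers higher. An unadjusted p under 0.05 was reached by 4213 of the 13327 tested identifiers without the block. CXCL8, the neutrophil chemokine, measured 623, 186 and 25.8 FPKM in the lesions of Bart, Jerome and Sadie, against 101, 21.8 and 3.10 FPKM in healthy mucosa. CSF3, the granulocyte growth factor, measured 283, 80.3 and 16.3 FPKM, against 71.7, 5.87 and 0.432 FPKM. MMP1, a collagenase, measured 1314, 109 and 90.1 FPKM, against 71.4, 16.9 and 0.628 FPKM. With the cat as a block the adjusted p from limma was 0.022 for CXCL8, 0.024 for CSF3 and 0.031 for MMP1, against 0.268, 0.258 and 0.149 without it.

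The order Bart, Jerome, Sadie, which IL17A showed across lesions, was shared by 7 of these 8 genes: CXCL8, CCL2, CSF3, IL6, TNF, MMP1 and MMP9. It was looked for after the values of IL17A had been seen. Of all tested identifiers 19.3% had it, and of the named ones with a positive difference 27.3%. In 5 of the 8 the healthy libraries had the same order too, as they did for IL17A, against 7.64% of tested identifiers. The lesion of Bart also had the least muscle RNA (summed FPKM 9.98, against 6001 in Jerome and 5429 in Sadie), whose part in the order was not tested. The exception among the 8 was S100A8, an alarmin of neutrophils and epithelium, which was lower in every lesion (6832, 16030 and 1962 FPKM in Bart, Jerome and Sadie) than in the healthy mucosa of the same cat (41366, 25490 and 5724 FPKM; log2 difference -1.60, adjusted p = 0.339 from limma). Of 6 named neutrophil markers 3 had this order, among them CSF3R, the receptor of CSF3, with 291, 86.9 and 39.2 FPKM in the lesions of Bart, Jerome and Sadie. NCF1, a subunit of the phagocyte oxidase, ran the other way with 25.4, 85.4 and 136 FPKM, and LTF, the lactoferrin of neutrophil granules, was highest in Sadie (10.9, 2.12 and 26.8 FPKM). Their part in the order was not tested.

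CCR6 and BATF did not follow this order. All 10 named B cell markers were highest in the lesion of Sadie, as was CCR6, against 28.8% of all tested identifiers and 26.2% of the named ones with a positive difference. Named T cell markers were lowest in the lesion of Bart in 12 of 13, the lesion with the most IL17A. Their summed FPKM was 299 there, against 671 in the lesion of Jerome and 783 in that of Sadie. The exception was CD28, with 23.6, 20.7 and 12.7 FPKM in the lesions of Bart, Jerome and Sadie. The share of all identifiers lowest in the lesion of Bart was not computed, so the count has no background beside it.

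**Figure D3:**
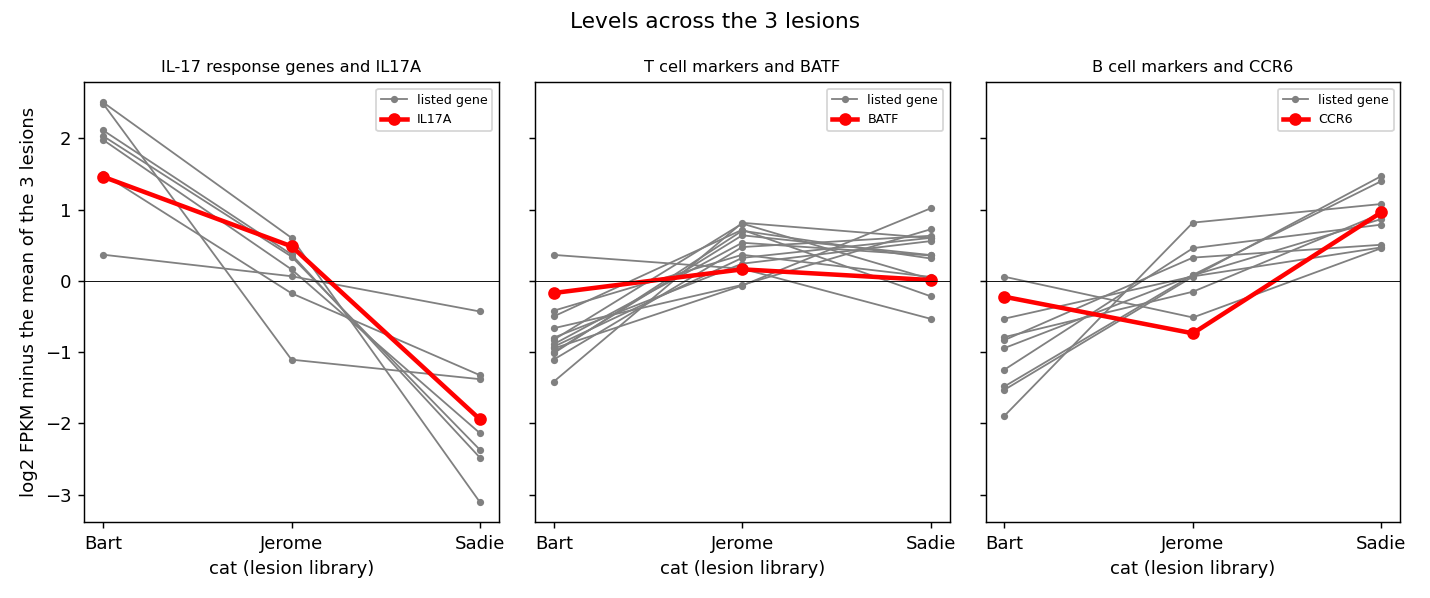
Log2 FPKM of the 3 lesions minus their mean (vertical axis) by cat (horizontal axis), for IL17A with 7 IL-17 response genes, BATF with 13 T cell markers and CCR6 with 9 B cell markers, those with a positive difference of the tissues. IL17A is highest in Bart and lowest in Sadie, as are all 7 response genes, and CCR6 is highest in Sadie like the B cell markers.

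To set the 4 genes against the amount of lymphocyte RNA, the mean log2 value of the 13 named T cell markers was subtracted in each library. The markers themselves differed by 1.59 on the log2 scale, and BATF by 1.60. Relative to them BATF was 0.18 ± 0.53 in lesions and 0.17 ± 0.42 in healthy mucosa (SD, n = 3 each), a difference of 0.01 (exact permutation test, two-sided, p = 1). IL17A differed by 1.21 in Bart and 0.77 in Jerome. In Sadie both IL17A values were raised to the floor, so the value of -1.56 is that of the markers with its sign turned and holds no measurement of IL17A. The average over the cats, 0.14 (exact p = 1), rests on it. The means were -2.90 ± 2.27 in lesions and -3.04 ± 1.01 in healthy mucosa (SD, n = 3 each). CCR6 differed by -0.31 (exact p = 0.8) and IL7R by -0.16 (exact p = 0.9). None of these 4 signs was stable: each changed when a library was left out. For CCR6 the healthy value of Bart was raised to the floor, which turns a lesion ratio of 7.51 into 2.88. His value of -0.22 relative to the T cell markers is lowered by that step. With 0.1 FPKM added in place of the floor, the CCR6 difference over the cats was 0.013. Among lesions, that of Bart had the most IL17A and the lowest summed T cell markers, at -0.66 relative to the markers, against -2.86 in Jerome.

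Relative to 10 named B cell markers, of which BLNK, an adaptor of the B cell receptor, was lower in lesions, CCR6 was lower in the lesion of all 3 cats, by -0.91 (Bart), -1.73 (Jerome) and -1.79 (Sadie). The mean was -3.02 ± 0.86 in lesions and -1.54 ± 0.56 in healthy mucosa (SD, n = 3 each), a difference of -1.48 (exact p = 0.1, adjusted over the 5 relative values 0.5). With 3 libraries against 3, a two-sided exact permutation test cannot go below 0.10, so none of these 5 tests could reach 0.05. The B cell markers themselves differed by 2.76. The other 4 adjusted values were 1. Markers and members both carry a name because they differ at least 2-fold, so similar differences are favoured by that choice.

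**Figure D4:**
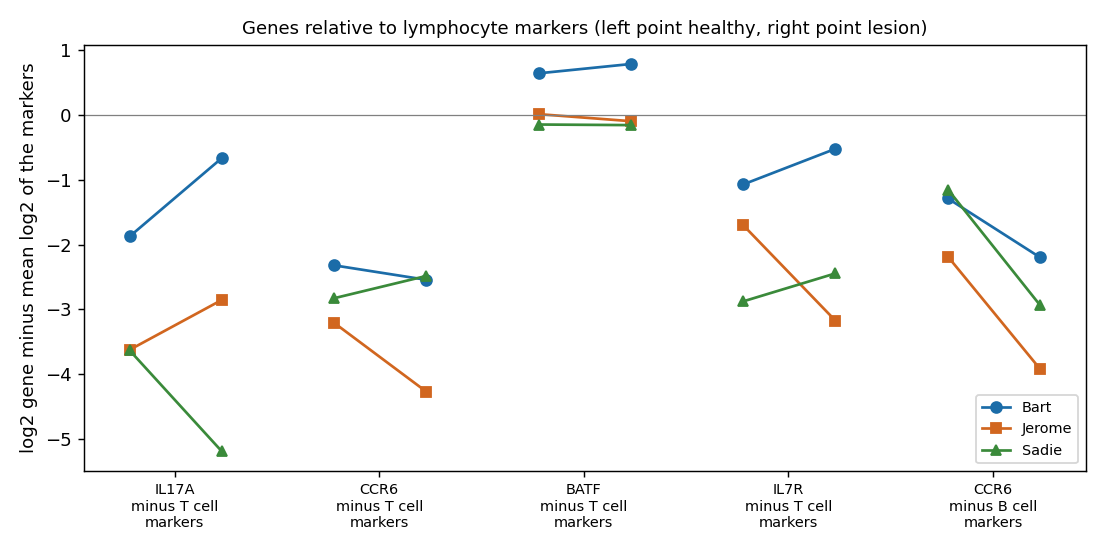
Log2 value of each gene minus the mean log2 value of 13 T cell or 10 B cell markers in the same library (vertical axis), with healthy mucosa at the left and lesion at the right end of each line, 1 line per cat. BATF lines are nearly flat, IL17A turns up in Bart and Jerome, its line for Sadie shows only the markers because both values are at the floor, and CCR6 falls against the B cell markers in all 3 cats.

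Other helper T cell programs were read in the same libraries. Of 11 Th1 genes, 9 had a name and a positive difference, and STAT4, the factor downstream of interleukin 12, rose (log2 difference 1.53, adjusted p = 0.048 from limma), a call lost after quantile normalization (0.057) or with 0.1 FPKM added (0.053). With the block 6 passed. Of all tested identifiers 5.31% were called higher, 12.2% with the block, and of the named ones with a positive difference 31.5% without it. IL12RB1, IL27, CXCR3, IL18R1 and IL18RAP also stand in the Th17 lists above, so these counts share genes. IFNG, the Th1 cytokine, measured 6.92, 11.8 and 4.49 FPKM in the lesions of Bart, Jerome and Sadie, against 1.05, 7.59 and 0.845 FPKM in healthy mucosa (log2 difference 1.84, adjusted p = 0.207). In lesions IL17A was above IFNG in Bart and below it in Jerome and Sadie. TBX21, the Th1 master factor, measured 6.68, 34.9 and 36.7 FPKM in the lesions of Bart, Jerome and Sadie, which is the reverse of the order of IL17A (log2 difference 2.46, adjusted p = 0.135, 0.022 with the block).

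Of 11 regulatory T cell genes, 6 had a name and 3 rose (4 rose and 1 fell with the block): IL10, LRRC32 and CTLA4. Their log2 differences were 2.48, 2.15 and 2.26 (adjusted p = 0.024, 0.028 and 0.041 from limma). With 0.1 FPKM added the adjusted p of CTLA4 was 0.058. Of all tested identifiers 5.31% were called higher (12.2% with the block), and of the named ones with a positive difference 31.5%. IL2RA, named in this list, was also counted among the Th17 cytokines and receptors above. IKZF2 (Helios), a factor of regulatory T cells, went the other way, with 1.07, 2.89 and 2.81 FPKM in the lesions of Bart, Jerome and Sadie, all below the healthy libraries at 3.50, 5.62 and 5.96 FPKM (log2 difference -1.25, adjusted p = 0.137 from limma, 0.039 with the block). FOXP3, the master factor of these cells, measured 2.64, 4.97 and 4.06 FPKM in the lesions of Bart, Jerome and Sadie, against 0.910, 1.90 and 1.88 FPKM (log2 difference 1.30, adjusted p = 0.080, 0.027 with the block). Among all 13327 tested identifiers 4213 had an unadjusted p under 0.05 without the block. Of 11 Th2 genes 2 had a name and none passed limma (unadjusted p was under 0.05 for 1, and 0 passed with the block). One was CCR4 and the other IL33, an alarmin of stromal and endothelial cells, with 8.04, 2.99 and 0.844 FPKM in the lesions of Bart, Jerome and Sadie. Without both libraries of Sadie the calls of IL10, LRRC32 and CTLA4 were lost, as was that of STAT4 (adjusted p = 0.256 to 0.276 from limma).

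Over the 7 Th17 and IL-17 lists together, 44 of 129 genes were named, of which 6 rose while 1 fell (25 and 3 with the block). Over all tested identifiers 5.31% were called higher and 6.61% lower (12.2% and 11.1% with the block), and 31.5% were called among named ones with a positive difference. The 6 were BATF, BATF2, NFATC1, IRF8, CXCR4 and JAK3, which other lymphocytes and myeloid cells also use, and the one that fell was RORA. Limma called 0 of the 44 without both libraries of Jerome or of Sadie (18 and 20 at an unadjusted p under 0.05), 0 without either single library of Sadie, 1 without either single library of Jerome and 4 without the healthy library of Bart. Since genes get a name only when 2-fold different, these counts are no independent evidence of a direction, and 328 rows at the end of the naming table, where its order puts the strongest falls, were not at hand.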

How the data were processed

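Biopsies of lesion and adjacent healthy mucosa from each of 3 cats were sequenced as poly(A) RNA libraries. The authors deposited FPKM per Ensembl gene identifier for each library. Tools named by the submitters' notes are Cuffnorm, Cufflinks, HISAT and bcl2fastq, without versions. The build of the genome was not given in the sources used here. The labels describe single reads and the paper paired reads. Whole reads are not in the files, so no interval for counting error is given.

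Symbols came from a supplementary table of the study: all 1981 rows at hand matched 1 identifier each by their 6 values to 5 significant digits. Of these, 47 with fewer than 3 values above the floor and 5 with symbols turned into dates were left out, which gave 1929 names. The fold changes in that table were not used. A gene without a name was not analysed here.

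Values under 1 FPKM were raised to 1 and log2 transformed. The 13327 identifiers that reached 1 FPKM in 3 or more of the 6 libraries were tested with limma 3.58.1 in R 4.3.3, two-sided, with a mean-variance trend and tissue as the only term. A result was called at a Benjamini-Hochberg adjusted p under 0.05. By the labels, samples of 1 replicate number are biopsies of the same cat. Deviations from the group means correlated within cats (r = 0.49 in Bart, 0.20 in Jerome and 0.41 in Sadie, against -0.44 to 0.27 between cats), and a paired fit, which adds the cat as a block, was the alternative. Values relative to markers were compared by exact permutation over libraries, which ignores the pairing by cat. Sign flips within a cat were the alternative. Tables and plots were made with Python 3.11.15.

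Alternatives were another treatment of low values, no filter, quantile normalization, median centring, no mean-variance trend, the block, and libraries left out. On simulated data for lesion against healthy mucosa over 13327 genes, with 200 genes changed, limma called 40% of those changed by 2 on the log2 scale and 79% of those changed by 4. With 2000 changed it called 75.3% and 93.4%.

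The 4 genes and the 18 lists were chosen with earlier results of these data known. Genes were named by rule: the 4 genes, up to 4 named members of each pathway list with the smallest p, the named members of the transcription factor, IL-17 family and BATF family lists, and the 3 genes most like each of the 4. IL6, IL1B, CXCL8, CSF3, S100A8, IFNG, TBX21, FOXP3, IKZF2 and the cell type markers were named after their values were seen. One gene of the lists, and the list in which it was the only named gene, are not reported here; it stays in the counts over lists.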

Additional observations from a re-analysis of the deposited data

How the results depend on the processing

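The log2 differences of IL17A, CCR6, BATF and IL7R stayed positive under every alternative run, and IL17A, CCR6 and IL7R never passed the test. Leaving out libraries gave 1.00 to 2.71 for IL17A, 0.80 to 1.71 for CCR6, 1.37 to 1.80 for BATF (adjusted p = 0.0331 to 0.257 from limma) and 1.00 to 2.14 for IL7R. Without the filter BATF kept 1.60 with an adjusted p of 0.0521 from limma. The calls then fell to 0 of the 4 genes (1 at an unadjusted p under 0.05), 526 identifiers and 2 listed genes. More identifiers were tested (18541, of which 4163 had an unadjusted p under 0.05). With the cat as a replicate block the calls were 1, 3098 and 28, and the call of none of the 4 genes changed. Leaving out libraries gave 0 to 1, 0 to 2136 and 0 to 10.

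The values relative to T cell markers had no stable sign. IL17A turned to -0.14 with 1 FPKM added and -0.18 with CD3D, CD3E and CD3G as the reference, CCR6 to 0.013 with 0.1 FPKM added, and BATF to -0.014 with 0.1 FPKM added and -0.31 with the 3 reference genes. The cause was not tested. Leaving out libraries gave -0.98 to 1.28 for IL17A, -0.64 to 0.27 for CCR6, -0.30 to 0.25 for BATF, -0.93 to 0.49 for IL7R, and -1.89 to -1.02 for CCR6 relative to B cell markers. IL17A stood at 1.28 without the lesion of Sadie, which lay under the floor, and at 0.99 without both libraries of Sadie. Without the lesion of Bart it stood at -0.98. With 3 cats and no read numbers, levels under 1 FPKM limit IL17A and CCR6 most.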

Other observations

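Of 21 macrophage and dendritic cell genes, 16 had a name, 7 rose by limma and 0 fell, with a median log2 difference of 1.83. Among all named genes with a positive difference 31.5% were called, and over all tested identifiers 5.31% were called higher. CCR1, a receptor of inflammatory chemokines, measured 57.7, 49.9 and 50.0 FPKM in the lesions of Bart, Jerome and Sadie, against 7.03, 10.4 and 6.92 FPKM in healthy mucosa (log2 difference 2.72, adjusted p = 0.018 from limma). The scavenger receptors MSR1 and CD163 had log2 differences of 2.18 and 2.31 (adjusted p = 0.019 and 0.025). CD207, the langerin of Langerhans cells, went the other way, with 0 to 0.106 FPKM in lesions and 1.36 to 4.93 FPKM in healthy mucosa (adjusted p = 0.184), and CLEC10A, a lectin of dendritic cells and macrophages, was lower in the lesion of Jerome than in its healthy mucosa (6.74 and 7.76 FPKM).

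Of 15 B cell markers, 10 had a name and 5 rose (median log2 difference 3.24), among them MS4A1 (CD20) with 4.97, 11.1 and 12.6 FPKM in the lesions of Bart, Jerome and Sadie and 0.133, 1.20 and 0.384 FPKM in healthy mucosa (adjusted p = 0.021 from limma). BLNK was lower in the lesion of every cat (47.0 ± 27.4 against 95.9 ± 20.7 FPKM, SD, n = 3 each), by -1.24 on the log2 scale (limma, adjusted p = 0.187). Of 10 plasma cell markers 6 had a name and DERL3 rose (log2 difference 3.34, adjusted p = 0.034; 5 rose with the cat as a block). SDC1, which epithelial cells also make, averaged 234 ± 136 FPKM in lesions against 644 ± 34.7 FPKM in the healthy libraries (SD, n = 3 each), with all lesions lower (-1.70 on the log2 scale, adjusted p = 0.088 from limma). Of 17 neutrophil markers 6 had a name, and CAMP, the cathelicidin, rose (log2 difference 2.37, adjusted p = 0.043; 3 with the block). Of 18 T cell markers 13 had a name, and CD28 rose (log2 difference 2.20, adjusted p = 0.028; 13 with the block). None of 16 named muscle genes passed limma (unadjusted p was under 0.05 for 0, and 0 passed with the block). Without the block 4213 of the 13327 tested identifiers had an unadjusted p under 0.05. Each list is named only as far as its genes differed 2-fold. Over all tested identifiers 5.31% were called higher, and 12.2% with the block.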
